A study of Chlorocebus aethiops vervet with 14 samples.

Results

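Magnocellular RNA of the vervet monkey was hybridized to 2 arrays made for another species, the human HG-U133 Plus 2.0 array, and these are 2 of the 14 arrays of the series. The other 12 are rhesus macaque arrays, 3 each of captured magnocellular neurons (M neurons), captured parvocellular neurons (P neurons), magnocellular layers (M layers) and parvocellular layers (P layers). All groups are normal adult males of Chlorocebus aethiops, each sample about 3000 laser pulses of tissue taken under cresyl violet, with RNA carried through 2 rounds of amplification. A group of the rhesus series comes from 3 animals, whereas the human arrays carry the numbers 1 and 2 only. The human arrays were set beside the rhesus arrays of M neurons 1 and 2 and of M layers 1 and 2. The design text gives comparison with the rhesus array as the purpose of the human arrays.

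The labels of the 2 human arrays do not say the same thing. Their titles call the samples magnocellular layers, while their source and extraction fields name neuronal cell bodies. The instrument records with the arrays hold the codes MN1 and MN2, which are also the codes of the rhesus arrays of M neurons 1 and 2, whereas the rhesus arrays of M layers 1 and 2 carry ML1 and ML2. The description states that each sample was split and run on the rhesus array as well. The arrays are therefore called human array 1 and human array 2 here, no array was moved to another group, and each result is given against both rhesus groups.

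The lateral geniculate nucleus of the thalamus passes retinal signals on to the visual cortex. Large relay cells of the magnocellular layers carry fast, low-resolution signals of motion and contrast, alongside smaller inhibitory interneurons, astrocytes and the oligodendrocytes of a heavily myelinated tissue. Relay cells release glutamate through the vesicular transporter SLC17A6 and send thick axons filled with neurofilament. On a cross-species array, a probe pairs with a vervet transcript only as well as their sequences match, so a low signal can mean little RNA or a poor match. For that reason values of different probe sets are not set against each other as levels, and the 2 kinds of array are compared by rank.

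Values are deposited signals, linear intensities made with MAS5 per the submitters' processing notes. A percentile gives the place of a probe set among all probe sets of its own array outside the controls, and a gene is called bright where its brightest probe set reached percentile 75 on both human arrays. The human array held 54675 probe sets, of which 41091 outside the controls carried 1 gene symbol and named 19775 genes. The rhesus array named 14132 genes in the same way. Of the human genes, 11956 were named on both arrays and 7819 (39.5%) had no rhesus probe set with their symbol alone. Another 27449 rhesus probe sets carried no symbol, so a gene without a rhesus name may still be probed there. Only 2 human arrays exist, so no test was run on them and their number limits the precision.

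The human arrays were dimmer than the rhesus arrays, and by less for the added control transcripts. The median signal was 11.2 on human array 1 and 9.76 on human array 2, and 60.2% and 64.5% of probe sets read under 16. The upper quartile was 30.2 and 25.4, against 43.3 to 57.0 on the 4 magnocellular rhesus arrays set beside them. Bacterial and phage transcripts added during processing were closer between the arrays: over 18 such probe sets shared by name the median ratio of human array to same-numbered rhesus array ran from 0.867 to 0.938. Both human arrays and the rhesus arrays of M neurons 1 and 2 were run on fluidics station 3, modules 1 and 2, but the human arrays under another version of the wash protocol. The rhesus arrays of M layers 1 and 2 were run on station 4. What the wash version contributed was not tested.

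Ranks on the human arrays followed ranks on the rhesus arrays only in part. Human array 1 had a Spearman correlation of 0.689 with M neuron 1, 0.683 with M neuron 2, 0.666 with M layer 1 and 0.669 with M layer 2, over the 11956 shared genes. Human array 2 gave 0.678, 0.684, 0.655 and 0.664 in the same order. These are correlations across genes, which are not independent replicates. The points share the arrays and their probes. Between arrays of 1 kind the values were far higher, 0.912 for the human arrays, 0.955 for M neurons 1 and 2 and 0.956 for M layers 1 and 2. Each human array ranked genes more like every one of the 6 neuron arrays, magnocellular or parvocellular, than like any of the 6 layer arrays, although the mean gap over the 4 magnocellular arrays was only 0.0204.

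**Figure D1:**
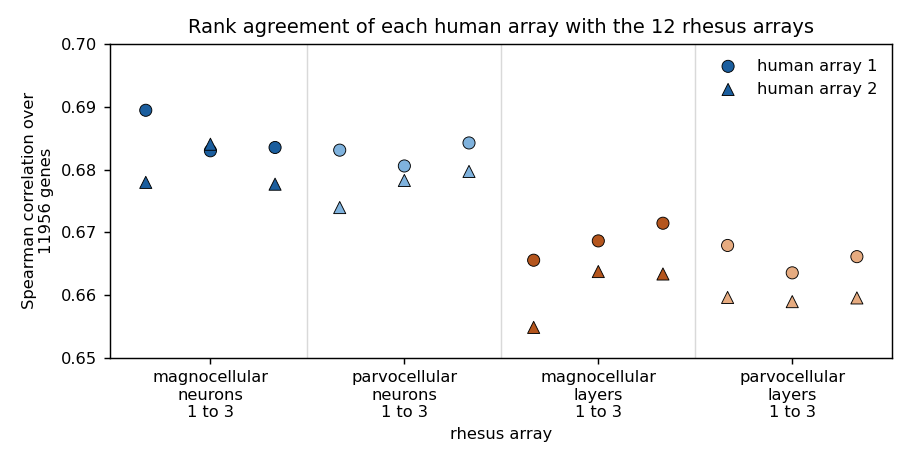
Spearman correlation of each human array (circles, array 1; triangles, array 2) with each of the 12 rhesus arrays over 11956 genes, the vertical axis starting at 0.65. For each human array, the 6 neuron arrays lie above the 6 layer arrays.

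Agreement was higher among bright genes. Among the 2989 genes dimmest on the rhesus arrays the mean correlation over the 8 pairs of arrays was 0.0609, and among the 2989 brightest it was 0.422. Of the shared genes, 3917 (32.8%) were bright on both kinds of array and 5686 (47.6%) on neither. Another 1414 were bright on the human arrays only and 939 on the rhesus arrays only. The human minus rhesus percentile differed by over 25 points for 21.0% of genes, with a median of 1.02 over all. Rank agreement was higher for human probe sets with the suffix _s_at, whose probes match several transcripts, at 0.712, than for the plain suffix _at, at 0.654. For the suffixes _x_at and _a_at it was 0.634 and 0.470. Genes on _s_at probe sets were also bright on the human arrays more often, 54.2% against 41.1% for _at. What the suffix itself contributed was not tested.

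Genes high in layer captures ranked below genes high in neuron captures on the human arrays, as on the neuron arrays. The genes were chosen on the parvocellular arrays alone, which share no sample with the human arrays: with limma, 12.1% of 26383 probe sets were called higher in P neurons and 1.99% higher in P layers at an adjusted p under 0.05. After quantile normalization the calls split evenly, 1201 higher in neurons and 1139 higher in layers. The 100 shared genes with the strongest difference in each direction were then ranked on every array. On human array 1 the layer-high genes had a median percentile of 82.3 and the neuron-high genes 95.4, and on human array 2 the medians were 79.4 and 95.2. The layer-high minus neuron-high difference was thus -13.1 and -15.8 points on the human arrays. It was -9.18 and -11.4 on M neurons 1 and 2, and 0.809 and 0.859 on M layers 1 and 2. Both human arrays lay beyond all 6 neuron arrays (-11.4 to -8.71) and away from all 6 layer arrays (-1.82 to 1.59). The probe sets of the 2 kinds of array differ, however, so a human difference is not on the scale of a rhesus one. With 50 genes in each direction human array 1 gave -8.15 and human array 2 -11.3, M neurons 1 and 2 gave -8.10 and -10.5, and M layers 1 and 2 gave 2.00 and 1.37, so human array 1 then lay between the M neurons. The sign in M layers 1 and 2 depended on the setting. It was negative with 200 genes, at -1.19 and -2.50, where M neurons gave -11.5 and -14.0. With means over probe sets M layers gave -2.93 and -4.31, and M neurons -13.5 and -16.5. On the 6 parvocellular arrays the direction is fixed by the choice of genes, and the other 8 arrays had no part in that choice. The magnocellular rhesus arrays share their probe sets with the parvocellular ones, and whether the groups share animals is not given. Full independence from the choice can therefore not be assumed.

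**Figure D2:**
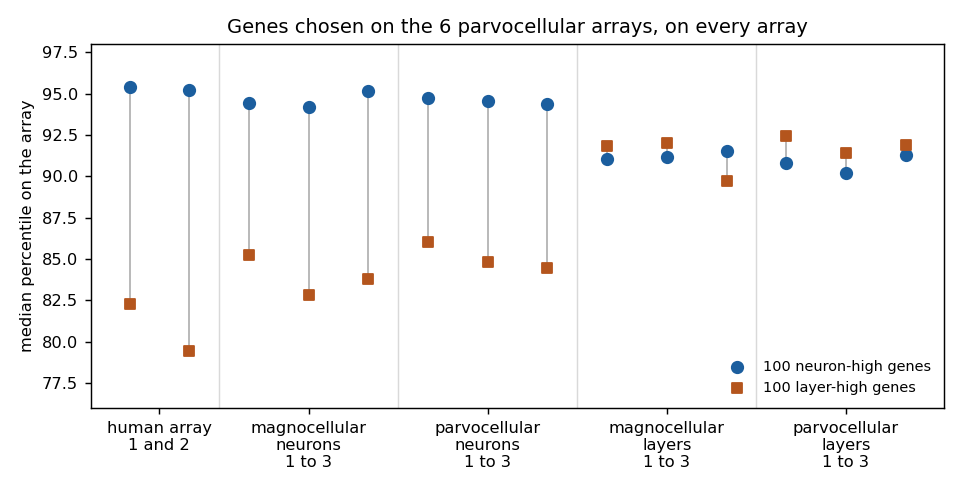
Median percentile of 100 neuron-high genes (circles) and 100 layer-high genes (squares), chosen on the 6 parvocellular arrays, on each of the 14 arrays. On both human arrays the gap is wide, as on the neuron arrays, and on the layer arrays the symbols lie close together.

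The control probe sets of GAPDH, but not those of actin, separated neuron from layer captures on the rhesus arrays. GAPDH, a glycolytic enzyme, is probed at its 3′ end, middle and 5′ end. Its 3′ to 5′ ratio was 4.90 on human array 1 and 5.21 on human array 2, 5.41 to 11.7 on the 6 neuron arrays and 28.9 to 36.6 on the 6 layer arrays. The same ratio of actin was 30.3 and 28.9 on the human arrays. It overlapped on the rhesus arrays, at 886 to 3010 for neurons and 669 to 3793 for layers. GAPDH is itself among the neuron-high genes above. The probes of the 2 kinds of array differ, so the ratio of a human array is not on the scale of a rhesus one.

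The difference between samples 1 and 2 on the human arrays was nearer to that of M neurons than to that of M layers. Over 7177 shared genes at or above percentile 50 on both kinds of array, the difference of log2(signal + 16) between human arrays 1 and 2 correlated at 0.284 (Pearson) with that between M neurons 1 and 2, and at 0.130 with that between M layers 1 and 2. It correlated at 0.155 with P neurons 1 and 2 and at 0.0721 with P layers 1 and 2. These are descriptions across genes that share 1 pair of arrays on each axis. The difference of M neurons 1 and 2 itself correlated at 0.289 with that of M layers 1 and 2, and at 0.280 with that of P neurons 1 and 2. That of M layers 1 and 2 correlated at 0.354 with that of P layers 1 and 2. The same numbers thus share part of their difference within the rhesus arrays too.

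Past a 2-fold difference on the log2(signal + 16) scale, 2.48% of all human genes were higher in array 1 and 0.566% higher in array 2. Of the 7177 shared genes, 205 were past 2-fold higher in human array 1, with a median of 1.17 on the log2 scale. Their median difference was 0.50 between M neurons 1 and 2 and -0.13 between M layers 1 and 2. On M neurons 37 of the 205 were past 2-fold higher in sample 1, where 2.26% of the 7177 were, and on M layers 7 were, where 0.334% were. The 44 genes higher in human array 2 had a median difference of 0.17 in neurons, where all 7177 had 0.25, and of -0.42 in layers, where all had -0.21. Past 2-fold higher in sample 2 were 2 of the 44 in neurons, where 0.237% of the 7177 were, and 7 in layers, where 1.63% were. On each side the larger count thus fell on the group with the larger share over all 7177 genes.

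GAD1, which makes GABA in inhibitory neurons, shows the first pattern. It read 1046 and 351 on human arrays 1 and 2, 895 and 292 on M neurons 1 and 2, and 1115 and 788 on M layers 1 and 2. Sample 1 was thus 2.98 times sample 2 on the human array, 3.06 times in neurons and 1.42 times in layers. The inhibitory list as a whole did not stand out in this way. Its 7 shared genes had median log2 differences of 0.14 on the human arrays and 0.21 in M neurons, where all shared genes had 0.18 and 0.19. In M neurons 5 of the 7 were higher in sample 1, and GAD2 was lower. GLUL, the glutamine synthetase of astrocytes, read 5502 and 2729 on the human arrays, 6091 and 3663 in neurons, and 7024 and 7187 in layers. The layer arrays read GLUL about equally in both samples, and the human and neuron arrays did not.

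Other genes moved with the number of the sample whatever the capture. TGFBI, a secreted matrix protein, read 9.45 and 193 on human arrays 1 and 2, 18.9 and 484 on M neurons 1 and 2, and 2.54 and 503 on M layers 1 and 2. INHBA, a subunit of activin, read 134 and 414 on the human arrays, 222 and 473 in neurons, and 162 and 555 in layers. UCHL1, an abundant neuronal deubiquitinase, read 936 and 2367 on the human arrays, 2869 and 5397 in neurons, and 1327 and 3946 in layers. Sample 2 was the higher for all of TGFBI, INHBA and UCHL1 on every pair. GAD1, GLUL and UCHL1 come from lists, while INHBA and TGFBI are among the 5 genes most in favour of human array 2.

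**Figure D3:**
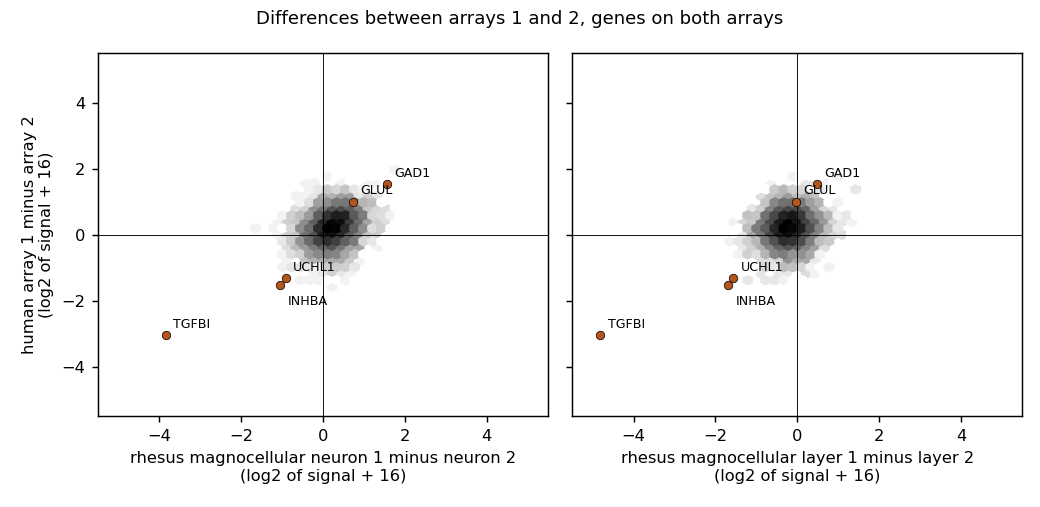
Difference between samples 1 and 2 on the human arrays (vertical axis) against the same difference in rhesus M neurons (left) and M layers (right), both as log2 of signal + 16, with grey bins for the 7177 shared genes and 5 genes named. GAD1 and GLUL lie further right in the neuron panel, and TGFBI, INHBA and UCHL1 lie at lower left in both.

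Astrocyte and oligodendrocyte lists leaned to sample 1 on the human and M neuron arrays, and the microglial list did not on the human arrays. Of 10 shared astrocyte genes, 9 were higher in human array 1, 8 in M neuron 1 and 5 in M layer 1, with median log2 differences of 0.60, 0.65 and 0.02. Of 5 shared oligodendrocyte genes, 4, 5 and 2 were higher in sample 1, with medians of 0.74, 0.54 and -0.02. Of 11 shared microglial genes, 5, 9 and 5 were higher in sample 1, with medians of -0.03, 0.30 and -0.13. Over all 11956 shared genes, 8201 were higher in human array 1, 8663 in M neuron 1 and 3633 in M layer 1, with medians of 0.18, 0.19 and -0.16. Each array holds 1 sample, so fewer cells of a type and less RNA per cell cannot be told apart.

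The genes named only on the human array were dimmer than the shared genes. Of the 7819, 2018 (25.8%) were bright, against 5331 of 11956 shared genes (44.6%) and 37.2% of all human genes. They had fewer probe sets, 1.75 per gene against 2.29. Among genes with 1 probe set the shares were 14.2% and 29.9%. Names of long non-coding RNAs and uncharacterized loci made up 2198 of them, of which 67 (3.05%) were bright, and of the other 5621 names 1951 (34.7%) were.

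Housekeeping families were mostly bright among the human-only genes, as among the shared ones. Of 29 cytosolic ribosomal proteins without a rhesus name 26 were bright, and 30 of 31 shared ones. For mitochondrial ribosomal proteins the counts were 14 of 17 and 51 of 60. For subunits of the respiratory chain and ATP synthase they were 25 of 32 and 52 of 58. Of proteasome genes, 13 of 22 human-only and 25 of 28 shared ones were bright. Families better known from other tissues were mostly dim, with 4 of 71 olfactory receptors, 0 of 42 keratins and 0 of 12 HOX factors bright. Of 27 human-only potassium channel subunits only 1 was bright, against 21 of 70 shared ones. Of 18 human-only glutamate receptors 7 were bright, and 4 of 10 shared ones. Glutamate receptors were mostly human-only, 18 of the 28 named on the human array.

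The 20 human-only genes of highest percentile included abundant genes of several kinds. TUBA1A, an alpha-tubulin of neurons, read 10883 and 11052. PPIA, the protein-folding enzyme cyclophilin A, read 10298 and 9542, although another of its 2 probe sets lay at percentile 28.8. The others were NPTN, BEX3, YWHAG, SKP1, ATP5F1A, PCP4, CFL1, BEX1, CLTC, TPT1, GNAS, FTH1P5, OPCML and LDHB, together with the neurofilament, release and receptor genes NEFL, NEFM, SNAP25 and GABRB2. All 20 read between 5046 and 11052 on both arrays. PCP4, a small calmodulin regulator, read 7661 and 7070. PPIA, GNAS, TPT1, FTH1P5 and LDHB rest on probe sets with the suffix _x_at, whose probes can also pair with related sequences.

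General neuronal markers were bright in 13 of 14 cases on the human arrays, all 8 shared ones and 5 of 6 human-only ones. MAP2, a dendritic microtubule protein without a rhesus name, read 3849 and 3832. RBFOX3, the nuclear antigen NeuN, lay at percentiles 60.3 and 57.8 and was the only exception.

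Neurofilament and axonal genes without a rhesus name were among the brightest. NEFL, the light neurofilament chain, read 9332 and 8640 on human arrays 1 and 2. NEFM, the medium chain, read 8941 and 8042 on its brightest probe set, while its other probe set lay at percentile 15.1. INA, the internexin partner of neurofilaments, read 5461 and 4791. Each lay above percentile 99.8 on both arrays, next to the shared heavy chain NEFH, which read 8116 and 7282 on the human arrays and 8368 to 10089 on the 4 rhesus arrays. In all, 9 of 12 human-only axonal genes were bright, and 14 of 15 shared ones. MAP1A, a microtubule-associated protein, read 1927 and 1118, and MAPT, the tau protein, 187 and 225. The 3 not bright were CNTN2, STMN1 and TUBB4A.

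Relay cell genes of the human-only set include the main glutamate transporter of thalamic output. SLC17A6, the vesicular transporter VGLUT2, read 4065 and 2567. CACNA1G, the T-type calcium channel that drives thalamic bursts, read 341 and 304 on 5 probe sets, 2 of them bright. LEF1, a Wnt-responsive factor of thalamus, read 94.9 and 104 on the only bright one of its 3 probe sets, the lowest lying at percentile 20.3. GBX2, a factor of the developing thalamus, read 6.38 and 1.67 and was the only one of the 6 human-only relay genes that was not bright.

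The calcium-binding proteins calbindin and calretinin had names on the human array alone. CALB1 (calbindin) read 547 and 1021, so human array 2 was the higher, and CALB2 (calretinin) read 81.2 and 43.4. PVALB (parvalbumin), which labels magnocellular and parvocellular relay cells, was shared and read 4656 and 2781 on the human arrays against 6831 and 6410 in M neurons and 4970 and 4541 in M layers. Parvalbumin ranked above percentile 99.6 on both human arrays. As these are different probe sets, the order of the 3 proteins cannot be taken from their signals.

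Genes of transmitter release were bright in 8 of 9 human-only cases and in 8 of 10 shared ones. SNAP25, a membrane fusion protein, read 8723 and 7766, and all 3 of its probe sets were bright. NSF, which takes apart the fusion complex, read 4810 and 3452. CPLX1, a clamp of fast release, read 2375 and 1552. SYT2, the calcium sensor of fast synapses, read 331 and 188. SYP, the vesicle protein synaptophysin, read 98.1 and 20.7 and was the gene not bright on both arrays.

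Fast transmitter receptors were bright in 6 of 9 human-only cases and in 7 of 16 shared ones. GABRB2, a beta subunit of the GABA-A receptor, read 7705 and 7051, the highest of the 9 human-only fast receptor genes by rank. GRIN2A, an NMDA receptor subunit, read 2366 and 2175, GRIN2B 333 and 149, and the AMPA receptor subunits GRIA2 and GRIA3 794 and 498, and 416 and 396. GABRA5, GABRD and GABRG1 were not bright. None of 6 human-only modulatory receptors (CHRM2, HTR2C, ADRA1B, ADRB1, DRD1 and NTSR2) was bright, and 5 of 24 shared ones were.

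Voltage-gated channels of the human-only set were bright in 4 of 7 cases, and shared ones in 16 of 22. CACNA1A, the P/Q-type calcium channel of nerve terminals, read 1489 and 856, although 1 of its 5 probe sets was bright. SCN2B, an accessory sodium channel subunit, read 179 and 180. HCN4, a pacemaker channel, read 64.2 and 85.4, and HCN2 read 23.9 and 4.22.

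**Figure D4:**
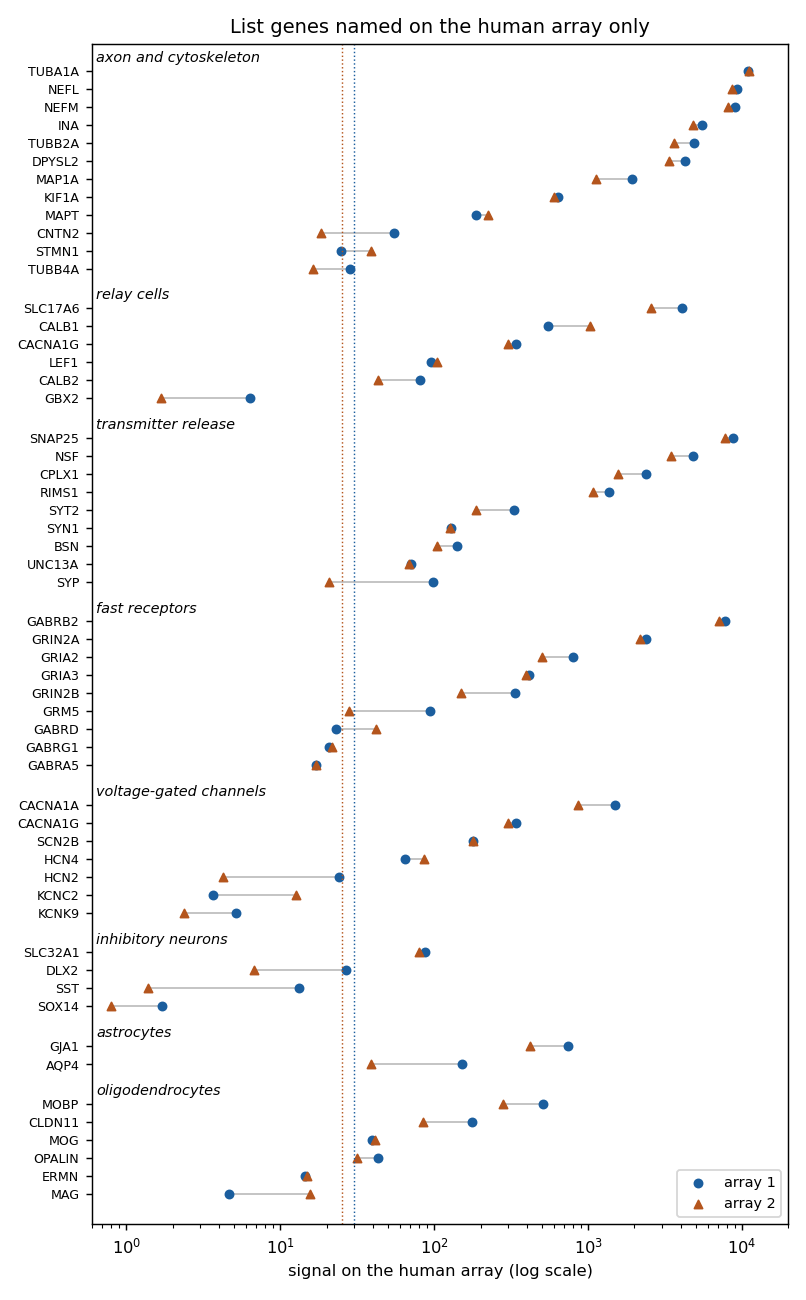
Signal of the list genes named only on the human array (log scale), circles for array 1 and triangles for array 2, with dotted lines at each array's upper quartile (30.2 and 25.4). Axonal, release and GABRB2 signals lie furthest right, and MAG, ERMN and most inhibitory genes lie left of the lines.

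Markers of other cells were read over a wide range of ranks. Shared glial and inhibitory genes such as GLUL (percentiles 99.9 and 99.7) and GAD1 (98.5 and 96.5) ranked among the neuronal genes. SLC32A1, the vesicular GABA transporter, read 87.4 and 79.5 and was the only bright one of 4 human-only inhibitory genes. Of all human-only genes 25.8% were bright, and of the 7 shared inhibitory genes 3 were. SST (somatostatin) read 13.3 and 1.39, DLX2 26.6 and 6.72, and SOX14 1.71 and 0.796. The median sample 1 minus 2 difference of the 7 shared inhibitory genes was 0.14 on the human arrays and 0.21 in M neurons, against 0.18 and 0.19 for all shared genes. Of the glial genes, AQP4, the water channel of astrocytes, read 151 and 38.6, and GJA1, their main gap junction protein, read 744 and 418. Both lay higher on array 1.

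Myelin genes were read in a patchwork. MOBP, a myelin protein of oligodendrocytes, read 511 and 278, and CLDN11, the claudin of myelin, read 177 and 84.7. MOG and OPALIN were bright, at 39.2 and 41.0 and at 42.9 and 31.5, while MAG read 4.62 and 15.6. None of the 11 microglial genes named on the human array was human-only, and CX3CR1, the fractalkine receptor, was the only bright one, at 116 and 26.2. The complement gene C1QA read 0.867 and 1.89 there and 42.1 to 55.8 on the rhesus arrays. RGS5, a pericyte regulator, read 211 and 142, and the globin HBD 2.63 and 1.94. What these cells contributed to the neuronal values was not tested.

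For shared genes the 2 arrays disagreed widely at single probe sets. Both human arrays lay above all 4 rhesus arrays in percentile for 34.4% of shared genes and below all 4 for 25.5%. RTN4, which encodes the Nogo proteins of the endoplasmic reticulum, read 8884 and 7266 on the human arrays and 1.04 to 2.49 on the rhesus arrays. Next came KLC1, a kinesin light chain (634 and 415 against 0.601 to 5.17), PIK3CD, ELAVL3, RAPH1, RIOK3, ZNF664, RFX3, RELL1 and TENM1. All 10 have 1 rhesus and 2 to 5 human probe sets, and the brightest was used. In the other direction EIF4A2, a translation initiation helicase, read 0.329 and 3.12 on its 1 human probe set with that symbol alone and 6998 to 7948 on the rhesus arrays. It was joined by TNIP3, LILRA3, MTA2, XKRX, EGLN2, VMP1, SOX30, ABCD2 and CYP4F11.

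**Figure D5:**
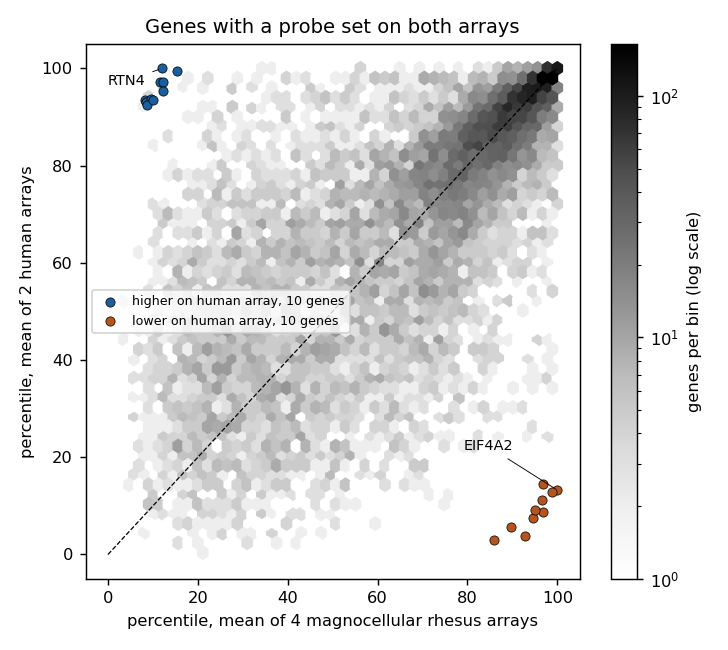
Percentile of the 11956 shared genes on the human arrays (mean of 2) against the rhesus arrays (mean of 4), with bins shaded by number of genes and the 10 most discordant genes in each direction coloured. Bright genes gather near the dashed line of equal percentile, and RTN4 and EIF4A2 lie at opposite corners.

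Genes of neuronal and glial interest also read differently, some of them with smaller changes of rank. MAP1B, a microtubule protein of axons, read 8094 and 6497 on the human arrays and 49.1 to 161 on the 4 rhesus arrays. CHRM3, the M3 muscarinic receptor, read 5652 and 4402 against 147 to 234. On the only bright one of its 9 human probe sets FOXP2, a thalamic transcription factor, read 225 and 112 against 23.3 to 38.2. GAD2, the other GABA-making enzyme, read 471 and 268 against 23.3 to 29.3, with 2 of its 5 human probe sets bright. In the opposite direction the AMPA receptor subunit GRIA4 read 31.1 and 36.0 against 723 to 1192, the astrocyte protein S100B 37.8 and 6.50 against 254 to 970, and the myelin enzyme CNP 164 and 118 against 4016 to 5028. As probe sets differ, these signals are not levels, and a wide gap in signal can be a small one in rank. CNP lay at percentiles 92.1 and 91.4 on the human arrays and at 99.7 to 99.8 on the rhesus arrays. For CHRM3 the percentiles were 99.9 and 99.9 against 87.5 to 89.6, and for GRIA4 75.4 and 80.4 against 96.6 to 97.3. GAD2 changed more, from 61.0 to 68.6 on the rhesus arrays to 96.7 and 95.6 on the human arrays. Of shared genes, 18 of 22 voltage-gated channels, 20 of 24 modulatory receptors and 9 of 16 fast receptors had a human minus rhesus percentile above the all-gene median of 1.02. The list medians were 15.0, 12.1 and 11.5. The 2989 genes dimmest on the rhesus arrays had a median of 16.7 whatever their kind. The next groups of 2989 genes, in order of rising rhesus rank, had medians of 1.63, 0.175 and -0.838. Whether these lists shifted more than other shared genes of similar rhesus rank was not tested. The 8 neuronal markers had a median of 0.22 and 11 microglial genes -21.0.

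Genes that earlier results of these data found to differ between magnocellular and parvocellular samples were bright about as often as other shared genes. Of 17 such genes 15 were on both arrays, and 7 of these were bright, where 44.6% of all shared genes were. SLC12A1, a sodium-potassium-chloride cotransporter, read 52.4 and 34.2 on the human arrays and 227 to 637 on the rhesus arrays, and TLL1, a metalloprotease, read 4.46 and 8.71 against 119 to 227. ITGA8, an integrin subunit, read 105 and 93.2 against 74.1 to 116, and BHLHE22, a transcription factor, read 143 and 149 against 96.9 to 118. No parvocellular sample was put on the human array, so the layer-type difference could not be read there.

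The largest single differences between the human arrays recurred on the rhesus arrays for some genes and not for others. RNF141, a ring finger protein named on the human array only, read 3037 and 243. PSMB3, a proteasome subunit, also human-only, read 35.6 and 316. SPATA24, a testis gene, read 179 and 21.2, yet 26.9 and 29.1 in M neurons and 21.8 and 27.4 in M layers. NFIX, a transcription factor, read 3.40 and 39.2 on the human arrays, 47.0 and 35.7 in M neurons, and 69.9 and 85.6 in M layers, so its direction recurred in layers only. HAPLN1, a linker of perineuronal nets, read 95.9 and 6.80 on the human arrays, 22.1 and 0.983 in M neurons, and 20.5 and 9.41 in M layers. ECI2, FHAD1 and ADAD2-AS1 complete the 5 largest in each direction with INHBA and TGFBI. Several of them are dim on 1 array, where the signal carries a large relative error.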

How the data were processed

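The authors deposited 1 linear intensity (MAS5 signal) per probe set and array, per the submitters' processing notes. The MAS5 version and scaling are not given in the sources used here, and detection calls were not used. Gene symbols came from the platform annotation. Probe sets with several symbols (1801 human, 361 rhesus) were not used to name genes. Values were compared as percentiles, or as log2(signal + 16), on each gene's brightest probe set by mean log2 over the arrays of its kind. Limma 3.58.1 in R 4.3.3 compared P neurons with P layers on the 6 parvocellular arrays, tested on simulated data first, with Benjamini-Hochberg adjustment; 3720 of 26383 probe sets passed 0.05. Other steps used Python 3.11.15, pandas 2.3.3 and scipy 1.17.1. Replicates are separate animals by the design text, which gives 3 per group, and whether the groups share animals is not given.

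The members, 17 gene lists, families and tests were chosen with earlier results of these data known. Named genes are the 20 human-only genes of highest percentile, list members, the 10 most discordant in each direction, the 5 largest array 1 minus 2 differences in each direction, cell type markers and genes that earlier results found to differ between layer types. Alternatives varied the probe set rule, thresholds, pseudocount, normalization and arrays left out. No sequence or coordinate was used.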

Additional observations from a re-analysis of the deposited data

How the results depend on the processing

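Rank agreement (mean Spearman 0.673 over 8 pairs) became 0.689 with genes of 1 probe set on each array, 0.548 without _x_at and _s_at human probe sets and 0.624 with genes at or above percentile 50, and ran from 0.670 to 0.678 when an array was left out. The neuron minus layer gap became 0.0137 with 1 probe set and 0.037 at percentile 50, and 0.0174 to 0.0234 with an array left out. Bright human-only genes numbered 966 at percentile 90 and 3532 at percentile 50, and 2248 or 2286 with 1 human array. The sample 1 minus 2 correlation with M neurons became 0.208 and 0.371 with pseudocounts 1 and 64, 0.425 at percentile 75 and 0.211 without a filter. With M layers it became 0.0951 with pseudocount 64, 0.196 at percentile 75, 0.0565 without a filter, 0.0900 as Spearman and 0.153 after quantile normalization, and in each of the 7 settings it stayed below that with M neurons. The capture gene difference (-14.5 on average) became -9.75 with 50 genes, where M neurons gave -8.10 and -10.5, and -20.5 with means over probe sets, and was -15.8 or -13.1 with 1 human array. Called probe sets between P neurons and P layers (3720, 85.9% higher in neurons) became 2401 without a filter and 2340 after quantile normalization, 51.3% of them higher in neurons, and 1668 to 4747 with a replicate left out, with 1668 without P layer 3 and 1787 without P layer 1. With the replicate block they numbered 4943. Deviations from the group means correlated at 0.155, 0.159 and 0.0989 between same-numbered P neurons and P layers. All of these are positive, and whether same-numbered samples share an animal was not tested. The main fit took no account of the numbers. Over means of probe sets, 13 of the 20 top human-only genes moved by more than the spread of the arrays, the lowest to percentile 88.2. The cause of these changes was not tested. Updating old symbols was not run, as no synonym table was used here, and leaving out a human array leaves no sample difference. Signals under 16 limit all ranks at the dim end.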

Other observations

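Of the listed genes, 13 long non-coding RNAs and all 8 sex-linked genes had names on the human array only, while H19 had one on the rhesus array alone. MALAT1, a nuclear RNA of splicing speckles, read 2913 and 2317 with 10 of 12 probe sets bright, and OIP5-AS1 (cyrano in fish) read 1552 and 1435. The imprinted MEG3 read 239 and 307, and MIAT 337 and 355. Of 13 long non-coding RNAs on the list, 7 were bright. The study used males: XIST, the RNA of the silent X chromosome, read 14.1 and 15.9 on its brightest of 8 probe sets, while the Y-linked RPS4Y1 read 451 and 397, DDX3Y 60.1 and 59.5 and USP9Y 69.7 and 62.8. The other Y-linked genes on the list, KDM5D, UTY, EIF1AY and ZFY, were not bright on both arrays; KDM5D read 23.4 and 0.893 and ZFY 40.6 and 19.1.

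Of 6 control probe sets of the human array for ribosomal RNA, the 3′ probe set of 28S RNA was the only one below percentile 75. The 5′ and middle probe sets of 18S RNA read 5119 and 4998, and 5478 and 6000, and its 3′ probe set 939 and 802. The 5′, middle and 3′ probe sets of 28S RNA read 1341 and 1164, 420 and 293, and 16.1 and 6.02. The probe set for the Alu repeat, a primate mobile element, read 11807 and 11496, above every probe set outside the controls on each human array.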
